A study of Mus musculus with 6 samples.

Results

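Nuclear genes of the mitochondrial respiratory chain were described by complex in mouse liver cells that had been sorted for a green fluorescent reporter of Foxp3, which encodes the defining transcription factor of regulatory T (Treg) cells. Members were all genes of the table whose symbols begin with Nduf, Uqcr, Atp5 or any of Cox4 to Cox8, together with Sdha, Sdhb, Sdhc, Sdhd, Cycs and Cyc1, which gave 93 of 15442 genes. They comprised 38 subunits and 8 assembly factors of complex I, the 4 subunits of complex II, 9 subunits of complex III, cytochrome c, 16 genes of complex IV and 17 of complex V. Ndufa4 was counted with complex IV, since its product is a subunit of that complex despite the symbol. The 13 subunits encoded by mitochondrial DNA were not analysed here. Both groups came from mice that carry the Foxp3 reporter. The label AIH, given to 3 libraries, stands for mice modelling autoimmune hepatitis, and the other 3 libraries are labelled as controls. The induction of the disease, the strain, age and sex of the mice, and the number of cells or animals per library are not given in the sources. Nothing in the labels ties the libraries to separate animals, so p-values measure the spread between these samples, which may be technical.

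Complex I takes electrons from NADH and complex II from succinate, and both pass them through coenzyme Q to complex III, from which the small soluble protein cytochrome c carries them to complex IV, which reduces oxygen. Complexes I, III and IV pump protons across the inner mitochondrial membrane, and complex V, the ATP synthase, lets them flow back to make ATP. Treg cells are known to rely on this chain more than on glycolysis, and in mice the loss of complex III in Treg cells impairs their suppressive function.

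The libraries held between 17780509 and 24572388 expected counts (counts in which reads that match several features are shared between them). Foxp3, on which the sort rested, stood at 4.95, 91.5 and 31.5 expected counts in the libraries AIH 1 to AIH 3 and at 418, 274 and 1002 in Control 1 to Control 3. Such low values go against a sort for its reporter. Of the 10 Treg markers read, 6 had positive log2 fold changes. Tnfrsf18, Tnfrsf4 and Il10 were higher in all 3 libraries labelled AIH than in the controls, at 1.92, 2.60 and 4.67 on the log2 scale. Foxp3, Gpr83, Nrp1 and Il2ra were negative, at −3.54, −2.69, −0.11 and −0.04. On scaled counts the groups did not overlap for 3 markers that were higher and 1 that was lower, beside 8.46% and 8.87% of all tested genes. None of the 10 was called. Because of Foxp3 the first group is called the libraries labelled AIH, and each sign given here depends on those labels. Markers of T cells summed to between 5087 and 7966 TPM in the libraries labelled AIH and between 2985 and 4150 TPM in the controls, TPM being a level scaled by transcript length and by the total of the library. Markers of CD8 T and NK cells summed to 3208 to 3616 against 723 to 2009 TPM, most of it from Nkg7 and Gzma. Of the 7 T cell markers tested, 6 had positive log2 fold changes, and Cd4 was negative at −0.67. Of the 8 CD8 T and NK cell markers, 6 were positive, and Prf1 and Klrb1c were negative at −0.81 and −0.70. All 15 macrophage markers had negative log2 fold changes, with sums of 258, 1918 and 2196 TPM in AIH 1 to AIH 3 and of 5979, 3360 and 14339 TPM in Control 1 to Control 3. In AIH 1 the macrophage markers Cd14, Vsig4, Timd4 and Fcgr1 were listed at 0.00, 0.03, 0.02 and 0.02 TPM. Markers of B cells summed to 32.4 to 61.8 against 136 to 347 TPM, and those of hepatocytes overlapped, at 539 to 2414 against 870 to 3152 TPM. Fewer cells of a type and less RNA per cell cannot be told apart in such libraries.

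Promoter windows of 300 bases (250 before to 50 after the start of the gene, RefSeq, GRCm38.p6) were found for 76 of the 93 members. They were searched on both strands for short motifs of 3 regulators known to bind promoters of respiratory chain genes in mammals, nuclear respiratory factor 1 (CGCANGCG), ETS factors such as GABP (CCGGAAG) and YY1 (AAGATGGC); no window held overlapping matches of different motifs. A window of 30 of these 76 members (39.5%) held the CGCANGCG letters, 5 members having 2 windows, against 19.3% of 9021 tested genes with a window and 9.22% of all 27025 genes with one. By complex this held for 10 of 15 members with a window in complex V, 10 of 33 of complex I subunits, 3 of 7 of complex I assembly factors, 2 of 3 of complex II, 3 of 5 of complex III and 1 of 12 of complex IV. The CCGGAAG letters were found for 19 members (25%, against 21.3% and 9.93%) and the AAGATGGC letters for 11 (14.5%, against 5.50% and 3.19%). Each match describes the letters and is not a measured binding site. The median log2 fold change of the tested members between the groups, described below, was 0.42 with and 0.39 without the CGCANGCG letters. It was 0.47 with and 0.31 without the CCGGAAG letters, and 0.49 with and 0.38 without the AAGATGGC letters. These differences were not tested. Cycs was the member with the smallest p in the comparison. Atp5j has 2 windows, of which 1 holds all 3 motifs and the other none. Sdha holds the CGCANGCG letters at 3 places, and Cox6a1 is the complex IV gene that holds them. Below are the windows of Cycs, of Atp5j (the one with the motifs), of Sdha and of Cox6a1. They lie at chr6:50566520-50566819, chr16:84834927-84835226, chr13:74350191-74350490 and chr5:115348909-115349208, all on the minus strand, and are written 5′ to 3′ on the strand of the gene, with every motif match in capitals.
Cycs: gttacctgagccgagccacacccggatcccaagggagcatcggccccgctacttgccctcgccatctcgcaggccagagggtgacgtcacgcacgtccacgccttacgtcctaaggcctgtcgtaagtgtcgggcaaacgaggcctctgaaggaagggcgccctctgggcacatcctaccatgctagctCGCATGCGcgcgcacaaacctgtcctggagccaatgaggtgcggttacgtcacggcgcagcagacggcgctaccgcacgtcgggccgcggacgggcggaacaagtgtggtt
Atp5j: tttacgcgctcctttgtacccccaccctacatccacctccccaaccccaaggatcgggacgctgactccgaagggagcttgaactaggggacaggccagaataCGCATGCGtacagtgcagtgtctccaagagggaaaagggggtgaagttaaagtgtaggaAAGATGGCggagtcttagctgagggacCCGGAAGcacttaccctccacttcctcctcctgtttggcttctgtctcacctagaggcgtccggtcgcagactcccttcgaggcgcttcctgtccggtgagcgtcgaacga
Sdha: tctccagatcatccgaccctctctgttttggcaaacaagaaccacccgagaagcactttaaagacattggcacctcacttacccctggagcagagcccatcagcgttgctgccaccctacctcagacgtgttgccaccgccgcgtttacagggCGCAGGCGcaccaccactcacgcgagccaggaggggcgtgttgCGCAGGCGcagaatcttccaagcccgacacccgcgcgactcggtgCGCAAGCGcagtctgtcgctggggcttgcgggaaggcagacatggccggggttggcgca
Cox6a1: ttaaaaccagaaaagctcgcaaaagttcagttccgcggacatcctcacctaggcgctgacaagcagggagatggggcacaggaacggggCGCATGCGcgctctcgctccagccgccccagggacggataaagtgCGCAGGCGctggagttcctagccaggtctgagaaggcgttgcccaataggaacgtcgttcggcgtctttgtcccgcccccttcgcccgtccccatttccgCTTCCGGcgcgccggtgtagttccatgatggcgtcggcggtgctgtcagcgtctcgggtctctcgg

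Many respiratory chain genes were among the most abundant of these libraries. The 93 members together took between 5.78 and 7.15% of all TPM in a library, and 55 of them were among the 500 genes with the highest mean TPM over the 6 libraries. Of the 176 genes above 1000 TPM, 21 were members, while the median tested gene stood at 6.72 TPM. Levels ran from Cox6b1, a subunit of complex IV at a mean of 3019 TPM, to Cox4i2, a complex IV isoform known from lung and hypoxic cells that was listed at 0 in 5 libraries and at 0.54 TPM in AIH 2. In complexes I, III and V the small subunits stood higher per length than the catalytic ones. In complex V, the membrane and supernumerary subunits Atp5j2, Atp5k, Atp5l, Atp5md and Atp5mpl had a median of 1777 TPM, while the 5 subunits of the catalytic F1 head had one of 247 TPM, with Atp5a1, its alpha subunit, at 92.5 TPM. In complex III the 5 small subunits had a median of 1531 TPM, against 76.5 TPM for cytochrome c1, the iron-sulfur protein and both core proteins. In complex I the median was 450 TPM for the 31 accessory and 160 TPM for the 7 core subunits, and Ndufs1, a core subunit that carries iron-sulfur clusters, stood lowest among the core subunits at 15.5 TPM. The 8 assembly factors of complex I had a median of 24.3 TPM. For 54 of 92 tested members the highest library was less than 2 times the lowest.

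No respiratory chain gene passed the test between the groups, and most tested members leaned toward higher values in the libraries labelled AIH. Of the 92 members that passed the filter on low counts (all but Cox4i2), 0 were called by the quasi-likelihood test of edgeR at a threshold of 0.05 after Benjamini-Hochberg adjustment over the whole table, in which 10 of 11140 tested genes (0.0898%) were called. DESeq2 and limma-voom also called 0 members, where DESeq2 called 2.95% of the genes it tested. At an unadjusted p under 0.05, 7 members were higher (Cycs, Ndufa5, Ndufaf3, Sdhc, Ndufab1, Atp5j and Ndufa12) and 0 lower, against 4.42% of all tested genes higher and 3.85% lower. The log2 fold change (libraries labelled AIH minus control, on counts scaled for library composition) was positive for 76 of 92 members (82.6%), with a median of 0.39, beside 48.1% of all tested genes, whose median was −0.04. Fold changes were small: 74 of the 76 positive ones were below 1 on the log2 scale, and the 95% intervals of 85 members covered 0.

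The sums per complex and library show the size of the difference beside its spread. Summed over all members, the level was 71504, 57864 and 67869 TPM in AIH 1 to AIH 3 and 59965, 60570 and 57834 TPM in Control 1 to Control 3, so that AIH 2 lay among the controls. The means were 65746 ± 7064 and 59456 ± 1437 TPM (SD, n = 3 per group). On the scale of TPM, where every library sums to the same total, the median difference in log2(TPM + 1) was 0.12 over the tested members and −0.21 over all tested genes. On that scale 56 of the 92 members were positive, beside 4178 of all 11140 tested genes.

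**Figure D1:**
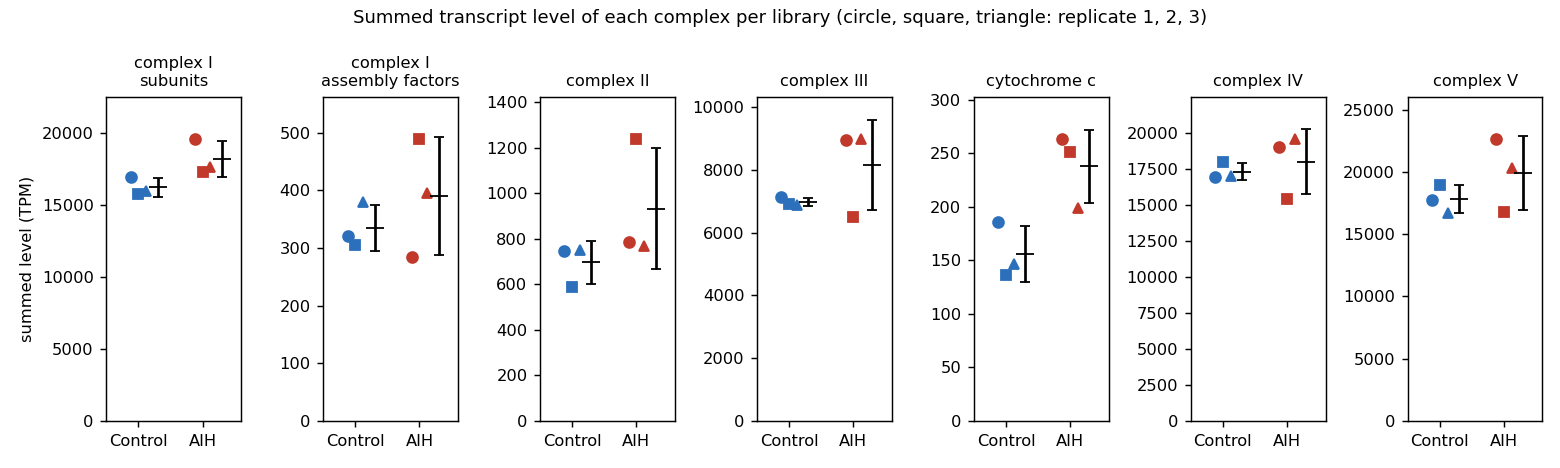
Summed level in TPM of the genes of each complex in every library, with the mean and SD (n = 3) beside the points of each group and axes from 0. For complex I subunits, complex II and cytochrome c the 3 libraries labelled AIH lie above the controls, while AIH 2 lies lowest of all 6 libraries for complexes III and IV and highest for complex II.

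**Figure D2:**
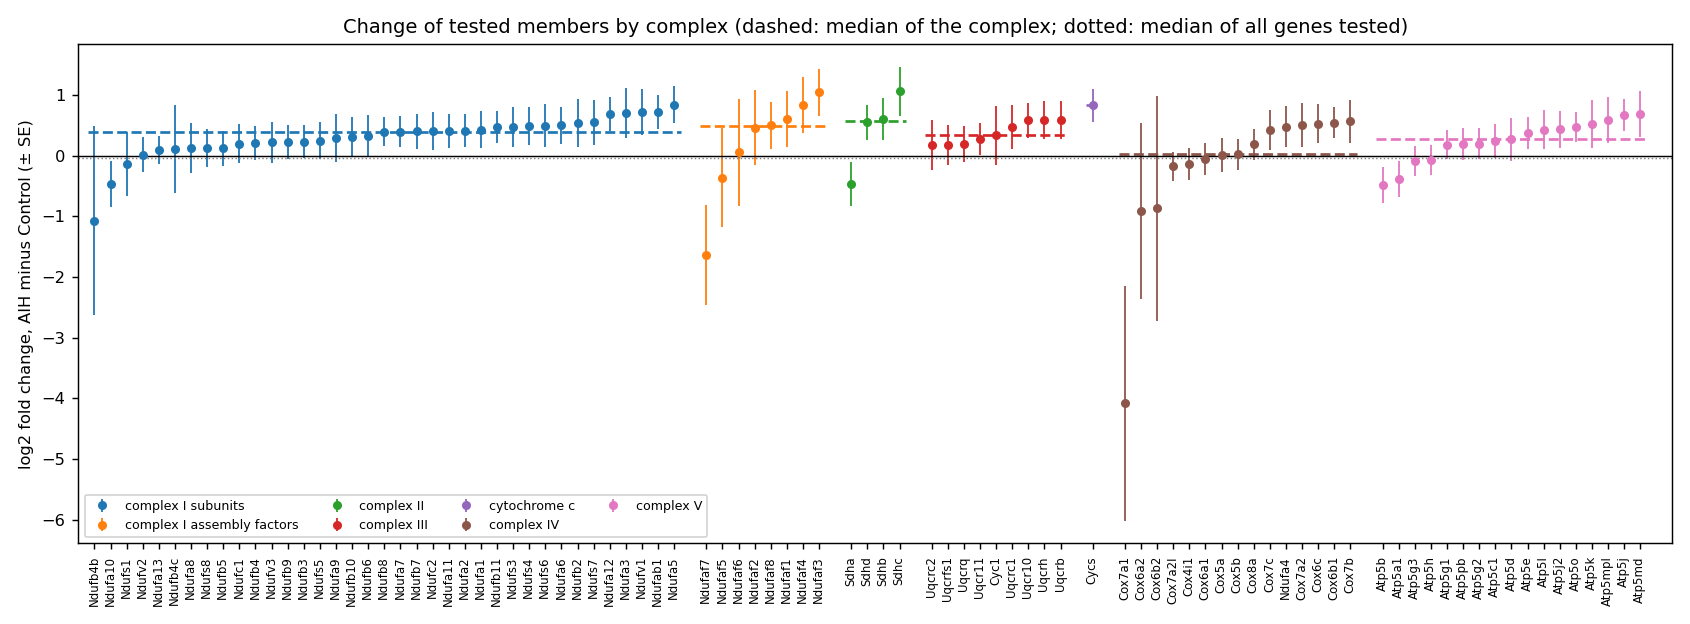
Log2 fold change with its approximate SE of the tested members, 1 of which is not drawn, ordered within their complex; dashed lines are the medians over all tested members of a complex. The medians of complexes I, II, III and V and of the assembly factors lie above the median of all tested genes (−0.04). That of complex IV lies at 0.02 and includes the sparse isoforms Cox7a1, Cox6a2 and Cox6b2, which are negative.

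The groups did not overlap in CPM (counts scaled by library size and composition) for 13 members that were higher in every library labelled AIH and 2 that were lower. These are 15 of 92, where 17.3% of all tested genes did not overlap (8.46% higher and 8.87% lower). Among the higher ones were Atp5j, Atp5o, Cox6b1, Cycs, Ndufa12, Ndufa5, Ndufa7, Ndufab1, Ndufaf3, Ndufb11, Ndufb8 and Sdhd, and the lower ones Cox7a1, which passed the filter on low counts through the controls alone, and Ndufaf7. On TPM, 5 members were higher without overlap (Atp5j, Cycs, Ndufa5, Ndufab1 and Ndufaf3) and 4 lower (Atp5a1, Cox7a1, Cox7a2l and Ndufaf7). The share of all tested genes without overlap on TPM is not given here, so these 2 counts say nothing particular to the members.

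Subunits of complex I leaned higher in the libraries labelled AIH, and none was called. Of 38 subunits, 35 were positive, with a median log2 fold change of 0.40, and the summed level was 18155 ± 1242 against 16208 ± 661 TPM (SD, n = 3). Ndufa5, an accessory subunit of the peripheral arm, was at 659, 515 and 555 TPM in AIH 1 to AIH 3 and at 404, 303 and 450 TPM in Control 1 to Control 3. All 3 libraries labelled AIH lay above the controls for Ndufa5, and its log2 fold change was 0.84 (SE 0.30), with an adjusted p of 0.507 by the quasi-likelihood test of edgeR. Ndufab1, which also serves as the mitochondrial acyl carrier protein, was at 333, 419 and 325 against 290, 260 and 235 TPM, a log2 fold change of 0.72 (SE 0.28, adjusted p 0.535). Ndufa12, an accessory subunit added late in assembly, was at 246, 282 and 214 against 169, 145 and 229 TPM, so that 1 control library lay above AIH 3, and its log2 fold change was 0.69 (SE 0.28, adjusted p 0.560).

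The most abundant complex I subunits, Ndufa3, Ndufa1 and Ndufa2, are small accessory subunits. Ndufa3 was at 4194, 1617 and 2939 TPM in AIH 1 to AIH 3 and at 1865, 2745 and 2032 TPM in Control 1 to Control 3, a log2 fold change of 0.70 (SE 0.41). AIH 1 held the highest and AIH 2 the lowest of its 6 values. Ndufa1 and Ndufa2 had log2 fold changes of 0.43 (SE 0.31) and 0.41 (SE 0.27), and their groups overlapped. The 7 core subunits had a median of 0.46, with 6 positive, and were highest in AIH 2. Ndufb4b and Ndufb4c, copies of Ndufb4 that can share reads with it, took 0.0705 to 1.57% and 6.45 to 8.82% of the TPM of the 3 genes, and their values are uncertain. The median over the 38 subunits was 0.26 without AIH 1 (in which macrophage markers were lowest), 0.20 without AIH 1 and Control 3, 0.21 when libraries were scaled by their totals, and 0.18 with a covariate made of the mean log2 CPM of the macrophage markers. The 2 groups do not overlap in this mean, so what the covariate removes and the group difference itself cannot be told apart. In the same order, the median of all tested genes in these fits was −0.09, −0.03, −0.23 and 0.05.

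Assembly factors of complex I varied more between libraries than the subunits. Of 8 factors, 6 were positive, with a median of 0.48. Ndufaf3, which helps build the early part of the complex that holds the quinone site, was at 40.8, 63.7 and 58.4 TPM in AIH 1 to AIH 3 and at 32.6, 31.2 and 27.4 TPM in the controls. The groups did not overlap, and its log2 fold change was 1.04 (SE 0.38, adjusted p 0.513 by the quasi-likelihood test of edgeR). Ndufaf7, a methyltransferase that takes part in early assembly, was at 1.46, 5.98 and 11.2 TPM against 32.1, 12.9 and 18.3 TPM. All its values in the libraries labelled AIH lay below the controls, and its log2 fold change was −1.64 (SE 0.82, adjusted p 0.669), or −0.25 with the macrophage covariate. Ndufaf8, the most abundant factor and a partner of Ndufaf5, was at 194 ± 66.8 against 158 ± 16.2 TPM, a log2 fold change of 0.50 (SE 0.39). Ndufaf4, a partner of Ndufaf3, and Ndufaf2, a factor bound to a late intermediate of the complex, had log2 fold changes of 0.83 (SE 0.47) and 0.46 (SE 0.62). The median was 0.29 without Control 2, 0.74 without AIH 1 and Control 3, 0.85 with the macrophage covariate and 0.30 with library totals.

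In complex II the large catalytic subunit and the other 3 had opposite signs, and none was called. Sdhc, a membrane anchor, was at 105, 256 and 303 TPM in AIH 1 to AIH 3 and at 151, 82.0 and 132 TPM in Control 1 to Control 3. AIH 1 lay among the controls, and the log2 fold change of 1.06 (SE 0.41, adjusted p 0.535 by the quasi-likelihood test of edgeR) was the highest positive one of the tested members. It was 0.71 without AIH 3 and 1.93 with the macrophage covariate. Sdhd, the other anchor, was at 174, 351 and 193 against 192, 155 and 216 TPM, a log2 fold change of 0.55 (SE 0.29). Sdhb, the iron-sulfur subunit, was at 486, 608 and 233 against 374, 293 and 351 TPM, a log2 fold change of 0.60 (SE 0.35). Both were highest in AIH 2. Sdha, the flavin-bearing subunit that oxidises succinate and whose promoter is printed above, was at 22.1, 24.8 and 39.5 against 31.1, 58.2 and 51.9 TPM, a log2 fold change of −0.46 (SE 0.37). The median of the 4 genes was 0.57, or 0.35 without AIH 2, the library in which their summed level of 1239 TPM stood above the range of 589 to 788 TPM of the other 5.

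All 9 subunits of complex III were positive, with a median log2 fold change of 0.33, and none was called. The 5 small subunits had a median of 0.58, and the 4 larger ones one of 0.26. Uqcrh, the hinge protein that sits beside cytochrome c1, was at 3180, 1912 and 2758 TPM in AIH 1 to AIH 3 and at 2163, 2268 and 1864 TPM in Control 1 to Control 3, a log2 fold change of 0.59 (SE 0.31, adjusted p 0.680 by the quasi-likelihood test of edgeR). Uqcrb, which borders the quinone-binding region, and Uqcr10 had log2 fold changes of 0.59 (SE 0.32) and 0.58 (SE 0.29), and Uqcr11 one of 0.27 (SE 0.27). In all 4 genes AIH 2 lay, in TPM, within the range of the controls or below it. Cyc1, which encodes cytochrome c1, the subunit that hands electrons to cytochrome c, was at 41.0, 91.5 and 28.4 against 52.1, 56.8 and 36.4 TPM. AIH 2 was its highest and AIH 3 its lowest value, and its log2 fold change of 0.33 (SE 0.48) was −0.18 without AIH 2. The median of the complex was 0.17 with library totals, 0.22 without AIH 1 and Control 3, 0.19 with the macrophage covariate and 0.03 on log2(TPM + 1).

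Cycs, the gene of cytochrome c, was higher in all 3 libraries labelled AIH than in the controls but was not called. It was at 263, 251 and 199 TPM in AIH 1 to AIH 3 and at 186, 136 and 147 TPM in Control 1 to Control 3, or 238 ± 34.3 against 156 ± 26.1 TPM (SD, n = 3). Its log2 fold change was 0.83 (SE 0.27), with an unadjusted p of 0.0132 and an adjusted p of 0.474 by the quasi-likelihood test of edgeR, the smallest of the members. The value was 0.47 with the macrophage covariate. Cytochrome c also triggers apoptosis when it leaves the mitochondrion.

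The median of complex IV lay near 0, with sparse isoforms among its negative genes. Of 15 tested genes 9 were positive, with a median of 0.02, and the summed level was 17976 ± 2265 against 17291 ± 563 TPM (SD, n = 3). The 6 negative ones included Cox7a1, Cox6a2 and Cox6b2, at −4.08, −0.91 and −0.87, with mean levels of 8.22, 28.4 and 5.87 TPM. The others were Cox4i1, Cox6a1 and Cox7a2l. A sparse gene counts as much in this median as an abundant one, and the median without the sparse isoforms is not given here. The sign of the median depended on the libraries and the scale: it was −0.08 without Control 2, −0.03 with the macrophage covariate, −0.17 with library totals, −0.22 on log2(TPM + 1) and 0.17 without Control 1. In the same order, the median of all tested genes was −0.01, 0.05, −0.23, −0.21 and −0.02, so the values on library totals and log2(TPM + 1) lay near that of the whole table. Of the 3 genes with the highest mean TPM (Cox6b1, Ndufa4 and Cox8a) all were positive. Cox6b1, which helps hold 2 copies of the complex together, was at 3266, 2858 and 3835 TPM in AIH 1 to AIH 3 and at 2669, 2624 and 2862 TPM in Control 1 to Control 3, a log2 fold change of 0.55 (SE 0.25, adjusted p 0.628 by the quasi-likelihood test of edgeR). In CPM its groups did not overlap, while in TPM AIH 2 lay just below Control 3.

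Ndufa4 was at 2941, 1535 and 2700 against 2129, 2270 and 1834 TPM, a log2 fold change of 0.48 (SE 0.34). Cox6c stood at 2102 ± 631 against 1775 ± 103 TPM, with 0.52 (SE 0.32). AIH 2 held the lowest value of both genes. Cox8a, one of the smallest subunits, was at 2063 ± 275 against 2158 ± 222 TPM, with a log2 fold change of 0.19 (SE 0.25).

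Several complex IV subunits exist as a ubiquitous and a tissue-restricted isoform, and in these cells the ubiquitous form carried nearly all transcripts. Cox4i1 took at least 99.96% of the Cox4i pair in every library, Cox6a1 96.4 to 99.98% of the Cox6a pair and Cox6b1 at least 99.68% of the pair with Cox6b2, a form known from testis. Cox4i1 was at 881, 1492 and 828 TPM in AIH 1 to AIH 3 and at 1517, 1130 and 1388 TPM in Control 1 to Control 3, and its log2 fold change was −0.14 (SE 0.27), or 0.02 without Control 1. Cox6a1 was at 1416 ± 207 against 1711 ± 354 TPM, and its log2 fold change was −0.06 (SE 0.26), or 0.19 without Control 1.

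Cox7a1, the heart and skeletal muscle form of subunit 7a, was at or near 0 in the libraries labelled AIH and was not called. It was at 0.00, 2.36 and 0.21 TPM in AIH 1 to AIH 3 and at 17.4, 16.4 and 12.9 TPM in the controls, from 0, 10 and 1 against 85, 60 and 60 expected counts. All values of the first group lay below all controls, and the log2 fold change was −4.08 (SE 1.94), with an adjusted p of 0.647 by the quasi-likelihood test of edgeR. It passed the filter on low counts through the controls alone, where it was high, so these values support nothing further. Its share of the Cox7a family was 0.075 ± 0.119% against 1.10 ± 0.187% (SD, n = 3). The macrophage markers were low in the same libraries, and with their mean as a covariate the log2 fold change was −2.97. Cox7a2, the liver and ubiquitous form, was at 1302, 704 and 1342 against 815, 1261 and 769 TPM, with 0.51 (SE 0.36). Cox7a2l, a factor that joins complexes III and IV into supercomplexes, was at 339, 405 and 331 against 496, 428 and 494 TPM, with −0.18 (SE 0.24) on the counts. Cox6a2, the muscle form of 6a, varied within both groups, at 5.94, 51.6 and 0.24 against 47.1, 56.5 and 9.30 TPM, and Cox6b2 stood at 2.48, 0.00 and 9.69 against 8.19, 5.83 and 9.05 TPM.

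**Figure D3:**
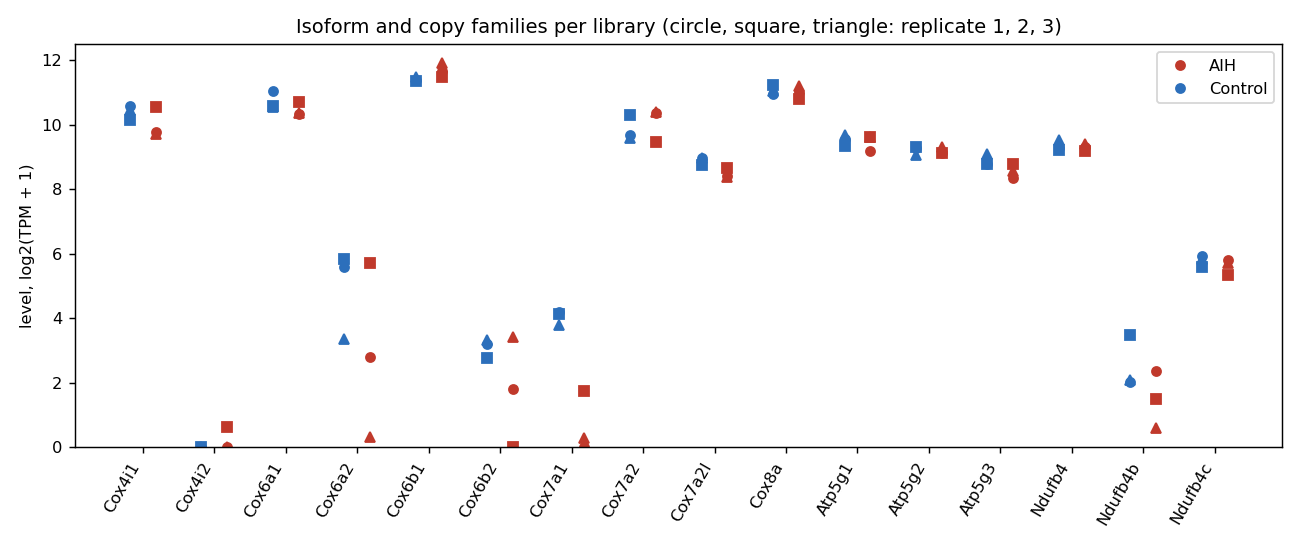
Level, as log2(TPM + 1), of the isoforms of Cox4i, Cox6a, Cox6b, Cox7a and Cox8, of the 3 genes of ATP synthase subunit c and of the Ndufb4 copies, 1 point per library. The 3 points of Cox7a1 in the libraries labelled AIH lie below the 3 controls, the points of Cox6a2 are spread within both groups, and those of Cox6b2 within the libraries labelled AIH.

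In complex V 13 of 17 genes were positive, with a median of 0.27, and none was called. Atp5j, which encodes coupling factor 6 of the peripheral stalk, was at 3384, 2478 and 2678 TPM in AIH 1 to AIH 3 and at 2131, 2023 and 2189 TPM in Control 1 to Control 3. All 3 libraries labelled AIH lay above the controls, with a log2 fold change of 0.68 (SE 0.26) and an adjusted p of 0.535 by the quasi-likelihood test of edgeR. It was 0.29 with the macrophage covariate. Atp5o, another stalk subunit, was at 662, 708 and 548 against 553, 499 and 582 TPM, with 0.47 (SE 0.24). Atp5md, a small membrane subunit involved in pairing of the synthase, was at 3825, 1734 and 3127 against 1947, 2757 and 1961 TPM, with 0.68 (SE 0.38) on the log2 scale. Atp5l, the g subunit of the membrane part, was at 2898, 1759 and 2799 against 2191, 2581 and 1895 TPM, with 0.43 (SE 0.32). AIH 2 held the lowest value of Atp5md and Atp5l.

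The 3 genes of subunit c, which form the rotor ring through which protons pass, encode the same mature protein and shared the output in like proportions in both groups. Atp5g1 gave 42.5 ± 2.60 against 40.7 ± 3.10%, Atp5g2 34.9 ± 3.49 against 33.2 ± 4.50% and Atp5g3 22.6 ± 1.83 against 26.1 ± 2.28% of their summed TPM (SD, n = 3). Their log2 fold changes were 0.18 (SE 0.24), 0.20 (SE 0.26) and −0.09 (SE 0.24). Of the F1 head, the alpha and beta subunits Atp5a1 and Atp5b, which were chosen after their values were seen, had log2 fold changes of −0.38 (SE 0.30) and −0.48 (SE 0.29). Atp5a1 was at 82.0, 79.1 and 56.8 against 99.4, 89.7 and 148 TPM, without overlap on that scale. The median of the complex was 0.47 without Control 1, 0.11 with library totals, 0.09 without AIH 1 and Control 3, −0.01 with the macrophage covariate and 0.08 on log2(TPM + 1).

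The 3 libraries labelled AIH did not share 1 profile across the chain. Taking each gene's deviation from its mean log2 CPM over the 6 libraries, the 5 membrane and supernumerary subunits of complex V had medians of 0.86, −0.47 and 0.41 in AIH 1 to AIH 3, and the 5 small subunits of complex III 0.61, −0.25 and 0.43. Complex II ran the other way, at −0.12, 0.66 and 0.16, as did the complex I core at −0.08, 0.31 and 0.13, and the large subunits of complex III stood highest in AIH 2 at 0.54. Over all tested genes the medians were between 0.03 and 0.15 in every library. Control 3 was negative for each of the 12 sets drawn. Over all members the median was 0.25 without AIH 1, 0.16 without AIH 1 and Control 3 and 0.08 with the macrophage covariate, under which 56 of 92 members were positive. The median of all tested genes in these fits was −0.09, −0.03 and 0.05.

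**Figure D4:**
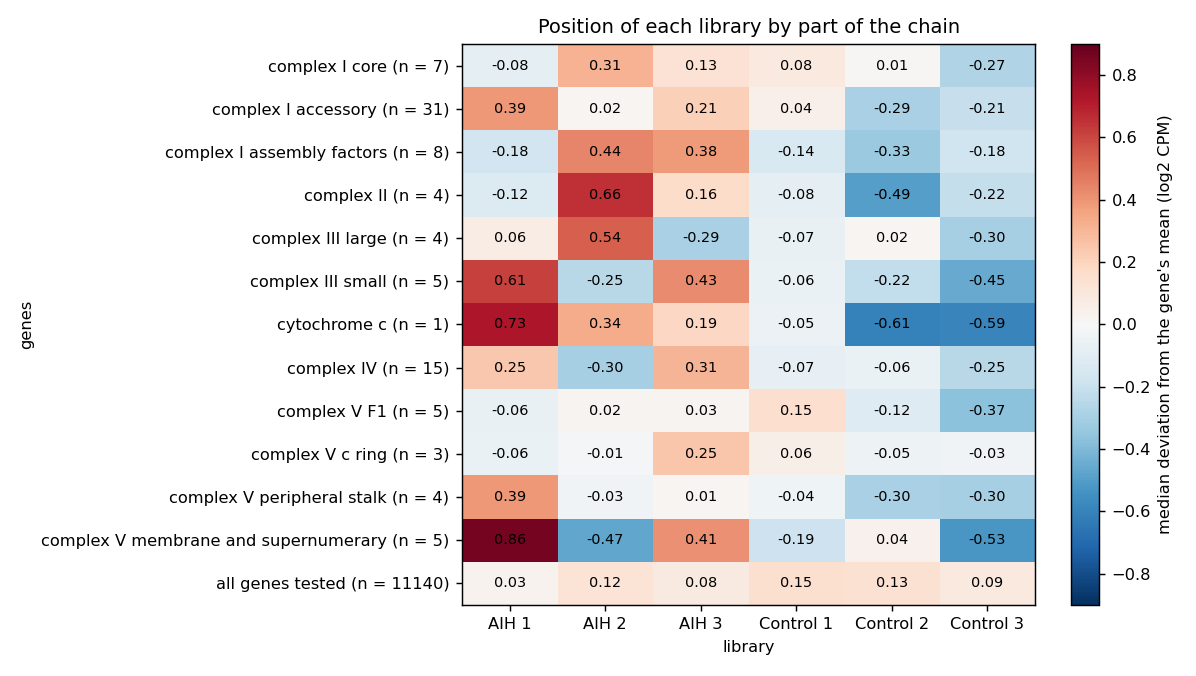
Median over the genes of each part of the chain (rows, n genes) of the deviation of log2 CPM from the gene's mean over the 6 libraries (columns), in red above and in blue below that mean. Small subunits of complexes III and V are high in AIH 1 and AIH 3 and low in AIH 2, while complex II and the complex I core are highest in AIH 2.

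Most respiratory chain transcripts are short, and short transcripts as a class leaned the same way. With length read from the ratio of counts to TPM, the median member had 0.22 of the length of the median tested gene. On that measure 76 of 92 members fell in the shortest of 5 equal classes of tested genes. That class, of 2159 genes, had a median log2 fold change of 0.26 and 65.1% positive values, against medians of −0.22 and −0.21 in the 2 longest classes. The 76 members in it had a median of 0.40. Spearman's correlation of length with log2 fold change was −0.16 across 10791 genes with a length and −0.12 across the 92 members, given as a description because genes share the 6 libraries. The part of length in the members' values was not tested.

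**Figure D5:**
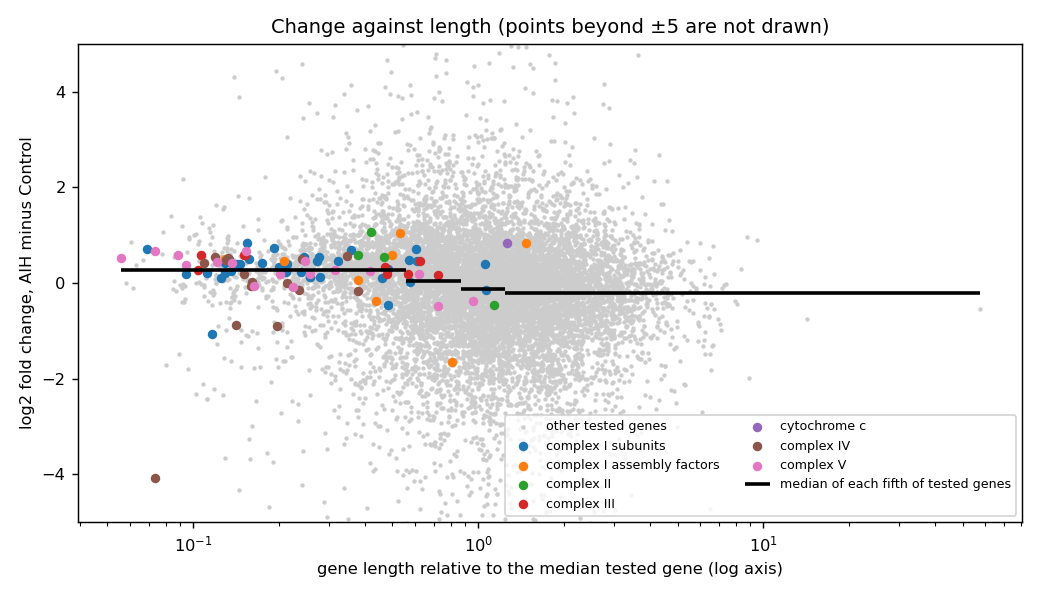
Log2 fold change against gene length, read from the ratio of counts to TPM, relative to the median tested gene (log axis). Members are in colour by complex and other tested genes in grey. The black lines are the medians of 5 equal classes of tested genes by length, from 0.26 in the shortest to −0.21 in the longest, and 76 of the 92 members lie in the shortest class.

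The transcript table held 168 transcripts of the members, 130 of them tested, and 0 were called by the quasi-likelihood test of edgeR, as were 0 (0%) of all 17999 tested. At an unadjusted p under 0.05, 6 were higher, against 2.14% of all tested transcripts higher and 2.01% lower; of the 6, 2 were of Atp5j and 1 each of Cycs, Ndufa12, Ndufa5 and Ndufaf3. Of 41 members with several transcripts in the table, 30 had a main one that carried at least 80% of their TPM. Among the others was Atp5j, whose main transcript took 59.1 ± 1.05% of its TPM in the libraries labelled AIH and 56.8 ± 2.40% in the controls (SD, n = 3). A test of transcript usage over 3779 genes called 0 (0%), and 0 of the 30 members that could be tested.

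Genes that build or supply the chain without being members were read from lists of known factors, and none was called. Of 31 tested assembly factors of complexes II to V, 25 were positive with a median log2 fold change of 0.33, beside 48.1% of all tested genes. At an unadjusted p under 0.05, 3 were higher and 1 lower, beside 4.42% and 3.85% of all tested genes. In CPM, 6 were higher without overlap and 1 lower, beside 8.46% and 8.87%. Cox20, a chaperone of the complex IV subunit Cox2, was at 610, 541 and 568 TPM in AIH 1 to AIH 3 and at 329, 398 and 216 TPM in Control 1 to Control 3, a log2 fold change of 1.07 (SE 0.33, adjusted p 0.449 by the quasi-likelihood test of edgeR). Atpaf1, a chaperone of the F1 beta subunit, was at 49.1, 20.4 and 15.04 against 3.53, 5.67 and 11.4 TPM, a log2 fold change of 2.36 (SE 0.72, adjusted p 0.449). The groups did not overlap for either gene. Coa4, the 1 lower factor, was at 16.79, 22.6 and 16.65 against 38.03, 51.3 and 73.0 TPM, a log2 fold change of −1.33 (SE 0.59). Its groups did not overlap in TPM. Further complex I assembly factors were positive for 7 of 9 with a median of 0.17, and genes of coenzyme Q synthesis for 7 of 13 with a median of 0.41.

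Of 14 tested regulators of respiratory chain and mitochondrial transcription, 6 were positive, with a median of −0.04, the value of all tested genes. Gabpb1, which encodes the beta subunit of the ETS factor GABP, was at 52.7, 36.9 and 55.0 TPM in AIH 1 to AIH 3 and at 12.1, 17.8 and 11.2 TPM in the controls. Its log2 fold change was 1.69 (SE 0.38) with an adjusted p of 0.317 by the quasi-likelihood test of edgeR, and the groups did not overlap. Gabpa, its DNA-binding partner, was at 6.61, 4.69 and 6.08 against 9.81, 12.2 and 11.1 TPM, a log2 fold change of −0.71 (SE 0.46). Its groups did not overlap in TPM either. In CPM, 1 of the 14 regulators was higher without overlap and 2 were lower, beside 8.46% and 8.87% of all tested genes. Nrf1, the gene of nuclear respiratory factor 1, was at 4.05, 9.50 and 0.82 against 5.50, 6.36 and 8.04 TPM. Tfam, which packages and transcribes mitochondrial DNA, was at 17.3, 17.8 and 35.2 against 11.1, 21.6 and 24.9 TPM, with overlapping groups. Cox20, Atpaf1, Coa4, Gabpb1, Gabpa, Nrf1 and Tfam were chosen from their lists after their values were seen.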

How the data were processed

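Polyadenylated RNA of cells sorted from liver was amplified by SMART-Seq2 and sequenced, per the labels' protocols. The protocol speaks of single cells, but each library is 1 sample with no map to cells. The authors deposited expected counts (not whole, not normalized) and TPM (corrected for length) for genes and for transcripts, per the file headers; 20 other columns per table (FPKM, normalized counts, averages) were not used. Per the submitters' processing notes, STAR, FastQC and featureCounts were used with a genome build called GRCm39 or mm39. The program that shared reads is not given in the sources used here. PCR copies are not told apart.

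Rounded expected counts were fitted in R 4.3.3 with edgeR 4.0.16 (TMM, filterByExpr with minimum count 10 and minimum total 15, quasi-likelihood, group as the only term) over 11140 genes, with Benjamini-Hochberg adjustment and a threshold of 0.05. Each SE is approximate, the size of the log2 fold change divided by the root of F. Transcripts were fitted likewise, and usage with diffSpliceDGE. The script was tested on simulated data. DESeq2 1.42.0 and limma-voom (limma 3.58.1) were alternatives. TPM was used for levels, with a pseudocount of 1 on the log scale. Relative gene length was read from the ratio of counts to TPM. This ratio gives the length used to compute TPM, which need not be the full length of the transcript. RefSeq promoter windows carry their own build and no other coordinates were used.

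Members, lists and alternatives were chosen with earlier results of these data known, so no p is given over a list. Named per complex were the 3 tested members with the highest mean TPM and the 3 with the smallest p, with Cycs, Cyc1, the 4 subunits of complex II and the isoform families. Of the members, 1 is counted with the others but is not reported here by name.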

Additional observations from a re-analysis of the deposited data

How the results depend on the processing

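No member was called under any of the alternatives run, and their smallest adjusted p was 0.0985 (Ndufaf3, DESeq2). Over all genes the count of 10 calls was 3 with library totals as the scaling, 32 without the filter, 337 with DESeq2, 21 with limma-voom, 1 without AIH 1 and Control 3, 0 with the mean of the macrophage markers as covariate and 0 to 1 with any 1 library left out. Library totals moved the median of all genes from −0.04 to −0.23. That median was −0.03 without AIH 1 and Control 3, 0.05 with the covariate and −0.21 on log2(TPM + 1). With 1 library left out it ran from −0.10 to 0.015. The median log2 fold change of the members (0.39) was 0.19 with library totals, 0.16 without AIH 1 and Control 3, 0.081 with the covariate, 0.12 on log2(TPM + 1) and 0.25 to 0.46 with 1 library left out; for complex I subunits (0.40) these were 0.21, 0.20, 0.18, 0.15 and 0.26 to 0.46. Complex I assembly factors (0.48) stood at 0.85 with the covariate. Complex II (0.57) stood at 0.40 with library totals, 0.28 on log2(TPM + 1) and 0.35 to 0.68 with 1 library left out, and complex III (0.33) at 0.17 with library totals and 0.029 on log2(TPM + 1). Complex IV (0.02) stood at −0.17 and −0.22 on these scales, and complex V (0.27) at 0.091 without AIH 1 and Control 3, −0.0061 with the covariate, 0.084 on log2(TPM + 1) and 0.21 to 0.47 with 1 library left out. The log2(TPM + 1) values by complex were chosen after seeing the data. The 15 members without overlap became 30 without AIH 1 and Control 3 and 19 to 44 with 1 library left out, where fewer libraries make overlap rarer. The share of all tested genes without overlap in these settings is not given here, so these counts say nothing particular to the members. Of 583 values of the 39 named tested members under alternatives, 572 kept their direction. The 11 that reversed, all of them uncalled, were Atp5g1 (−0.0014) and Cox8a (−0.0061) with library totals; Atp5g3 (0.047), Atp5l (−0.053), Atp5md (−0.0061), Cox7a2 (−0.028), Ndufa3 (−0.13) and Ndufa4 (−0.034) with the covariate; Cyc1 (−0.18) without AIH 2; and Cox4i1 (0.020) and Cox6a1 (0.19) without Control 1. With 1 library left out Cyc1 ranged from −0.18 to 0.62, Cox4i1 from −0.34 to 0.020 and Cox6a1 from −0.18 to 0.19. The cause was not tested.

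Nothing in the labels pairs the samples by replicate number, and deviations of same-numbered libraries correlated at 0.013, 0.0013 and 0.19. No values of differently numbered libraries stand beside these, so they cannot settle whether samples were paired. Used as a block, the replicate number gave 0 calls over all genes and a member median of 0.37. At this depth Cox4i2 had too few counts to be tested.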
